A study of Mus musculus with 8 samples.

Results

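The CSF1 receptor axis and the myeloid transcription factors of the mouse retina were followed through 7 genes: the ligand genes Csf1 and Il34, the receptor gene Csf1r, and the transcription factor genes Spi1, Irf8, Runx1 and Cebpa. They were picked by gene symbol as known parts of this pathway, without a threshold on any measured value but with earlier results of these data known. Each matched 1 of the 57010 gene identifiers in the count table. All 7 had enough counts to be tested. RNA-seq libraries of poly(A) RNA were each made from 1 whole retina, with 2 libraries in each of 4 groups. The groups were wild-type (WT) retina at postnatal day 15 (P15) and rd10 retina at P15, P18 and P21. Mice homozygous for rd10 carry a germline point mutation in Pde6b, the gene of a rod phosphodiesterase subunit, in every cell. Their rods degenerate from about the third postnatal week. WT littermates served as controls in the study, which also names the C57BL/6J strain. WT retina was analysed here at P15 alone, so that at P18 and P21 the age and the genotype of rd10 retina differed from WT together and cannot be told apart. The mutation is a base change, which gene counts do not show, so the counts give no check of the genotype labels.

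CSF1R is a receptor tyrosine kinase on the surface of microglia and other macrophages. It is bound by 2 ligands, CSF1 and IL-34, and microglia need its signal to survive and to divide. PU.1, the product of Spi1, opens myeloid enhancers together with partners such as IRF8, RUNX1 and C/EBPα, and Csf1r is one of the known target genes of PU.1. In the central nervous system, neurons are a main source of IL-34, whereas glia are a known source of CSF1.

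The libraries held 28076947 to 33724562 counts. Counts of Y-linked genes and of Xist divided the mice into 4 females and 4 males. Both WT P15 libraries were female and both rd10 P15 libraries were male, whereas at P18 and P21 replicate 1 was male and replicate 2 was female. Sex and genotype therefore cannot be told apart at P15. Retina was recognisable in all libraries, with 10 rod genes summing to 44900 to 55300 CPM (counts scaled to a common library total) in WT P15 and to 21100 to 27500 CPM in rd10 P21. Pigment epithelium genes, from the tissue behind the retina, summed to 36.5 to 114 CPM in WT retina, and in rd10 retina to 175 to 206 CPM at P15, 20.1 to 34.8 CPM at P18 and 29.9 to 33.6 CPM at P21. The labels name single retinas but not whether any came from the same mouse or litter, so the spread between libraries may be in part technical.

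Against WT P15, Csf1 and Irf8 were higher in rd10 P18 retina by 5.46-fold and 5.45-fold, and these were the only members of the 7 that passed the test there. A gene was called when its adjusted p from edgeR's quasi-likelihood test was under 0.05 and its log2 fold change was over 1 in size. That was 2 of 7 members against 1.48% of the 20457 genes tested. All 7 members lay higher in both rd10 P18 libraries than in both WT libraries, a separation that 24.1% of all genes showed in that direction. The median log2 fold change was 1.64 over the members and 0.01 over all genes tested. Since the members were chosen with earlier results of these data known, these contrasts with all genes are a description. In whole retina, more microglia, more RNA of these genes per microglial cell and more of their RNA from other cells cannot be told apart.

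**Figure D1:**
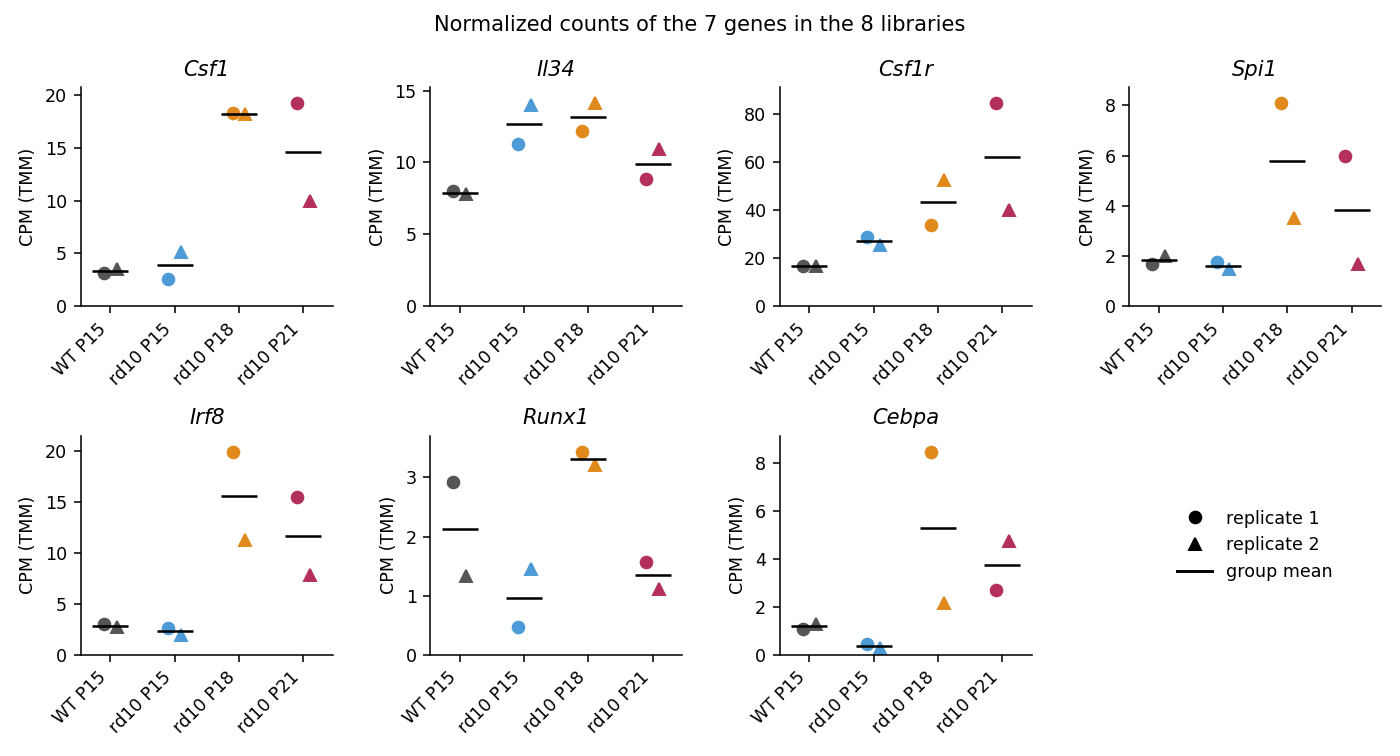
CPM scaled by TMM factors (vertical axis, linear from 0, a separate scale for each gene) for the 7 genes in the 4 groups, with circles for replicate 1, triangles for replicate 2 and a bar for the group mean of 2 libraries. Csf1, Csf1r, Irf8 and Cebpa lay above both P15 groups at P18 and P21, whereas Il34 stayed between 7.80 and 14.1 CPM.

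Csf1 encodes the ligand CSF1, also called M-CSF (ENSMUSG00000014599, GRCm38 chr3:107741048-107760469, minus strand). Its level was 3.18 and 3.50 CPM in the WT libraries, and in the rd10 libraries 2.61 and 5.18 at P15, 18.3 and 18.2 at P18, and 19.2 and 10 at P21. Both late groups lay above both P15 groups without overlap, the P15 groups overlapped each other, and the range at P21 enclosed P18. The group means were 3.34 ± 0.225 CPM for WT, and for rd10 3.90 ± 1.82 at P15, 18.2 ± 0.0529 at P18 and 14.6 ± 6.49 at P21 (SD, n = 2 each). Against WT P15, Csf1 rose at P18 by a log2 fold change of 2.45 (SE 0.41, edgeR adjusted p = 0.0303). At P21 the difference was 2.13 on the log2 scale (SE 0.40) and did not pass (adjusted p = 0.0815), and at P15 it was 0.22 (SE 0.40, adjusted p = 0.889). Against rd10 P15, which served as the second reference, the log2 fold change of 2.23 at P18 had an adjusted p of 0.0615, and that of 1.91 at P21 had one of 0.106. The P18 call was lost without WT P15 replicate 1 (adjusted p = 0.216) or WT P15 replicate 2 (adjusted p = 0.138), and with a term for sex (log2 fold change 2.23, adjusted p = 0.0565). Within females, the P18 library was 5.46 times the mean of the 2 WT libraries. Within males, the P18 library was 4.69 times the mean of the 2 rd10 P15 libraries. DESeq2 called Csf1 at P21 against WT P15 (adjusted p = 8.74e-05) and at P18 against rd10 P15 (adjusted p = 1.98e-05), where edgeR did not.

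The stretch upstream of Csf1 is shown because Csf1 is the ligand gene that passed the test. It covers the 250 bases before the RefSeq start site, chr3:107760470-107760719 on the minus strand of GRCm38.p6, written 5′ to 3′ along the gene.
Csf1: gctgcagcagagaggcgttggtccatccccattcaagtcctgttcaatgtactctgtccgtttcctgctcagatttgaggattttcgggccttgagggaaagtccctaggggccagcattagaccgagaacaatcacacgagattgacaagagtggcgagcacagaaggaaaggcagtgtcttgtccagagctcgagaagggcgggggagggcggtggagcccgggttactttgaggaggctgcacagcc
The letters of 5 motifs were searched on both strands: the PU-box GAGGAA, the RUNX motif TGTGGT, a C/EBP motif TTNNGCAA, an IRF motif AANNGAAA and the AP-1 motif TGANTCA. None of these letters occurred in the Csf1 window, so no base is in capitals. Among 32851 promoter windows of the same length, 23.3% held the PU-box, 14.0% the RUNX motif, 9.56% the C/EBP motif, 21.3% the IRF motif and 6.75% the AP-1 motif.

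Il34 encodes IL-34, the other ligand of CSF1R (ENSMUSG00000031750, GRCm38 chr8:110741829-110805924, minus strand). Its level was 7.98 and 7.80 CPM in the WT libraries, and in the rd10 libraries 11.3 and 14.0 at P15, 12.2 and 14.1 at P18, and 8.88 and 10.9 at P21. Every rd10 library was above both WT libraries, the rd10 P15 and P18 groups overlapped, and both P21 libraries lay below both P18 libraries. Against WT P15 the log2 fold change was 0.68 (SE 0.23, adjusted p = 0.279, edgeR) at P15, 0.74 (SE 0.23, adjusted p = 0.154) at P18 and 0.32 (SE 0.23, adjusted p = 0.666) at P21. None of these passed. Between rd10 P18 and rd10 P15 the log2 difference was 0.06 (SE 0.23), with Csf1 at 2.23 (SE 0.40) in the same comparison. The most alike genes in pattern over the 8 libraries were Anapc4 (r = 0.956), Sdhaf2 (r = 0.955) and Sphk2 (r = 0.953).

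The ligands were compared per length of exon, since Csf1 has 5281 exonic bases in the annotation and Il34 has 1959. Il34 stood above Csf1 in all 8 libraries on the scale of CPM per kb. Csf1 made up 12.9% and 14.3% of the summed CPM per kb of both ligands in the WT libraries, and 7.91% and 12.1% in the rd10 libraries of the same age. By P18 the share was 35.7% and 32.3%, and by P21 it was 44.5% and 25.5%. All 4 libraries of P18 and P21 thus exceeded all 4 libraries of P15. The mean log2 ratio of Csf1 to Il34 per kb was -2.68 for WT, and for rd10 -3.20 at P15, -0.96 at P18 and -0.94 at P21. Without the division by length, the mean ratio at P18 and P21 had the opposite sign (0.47 and 0.50), although at P21 the libraries stood at 1.11 and -0.12 on either side of 0.

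**Figure D2:**
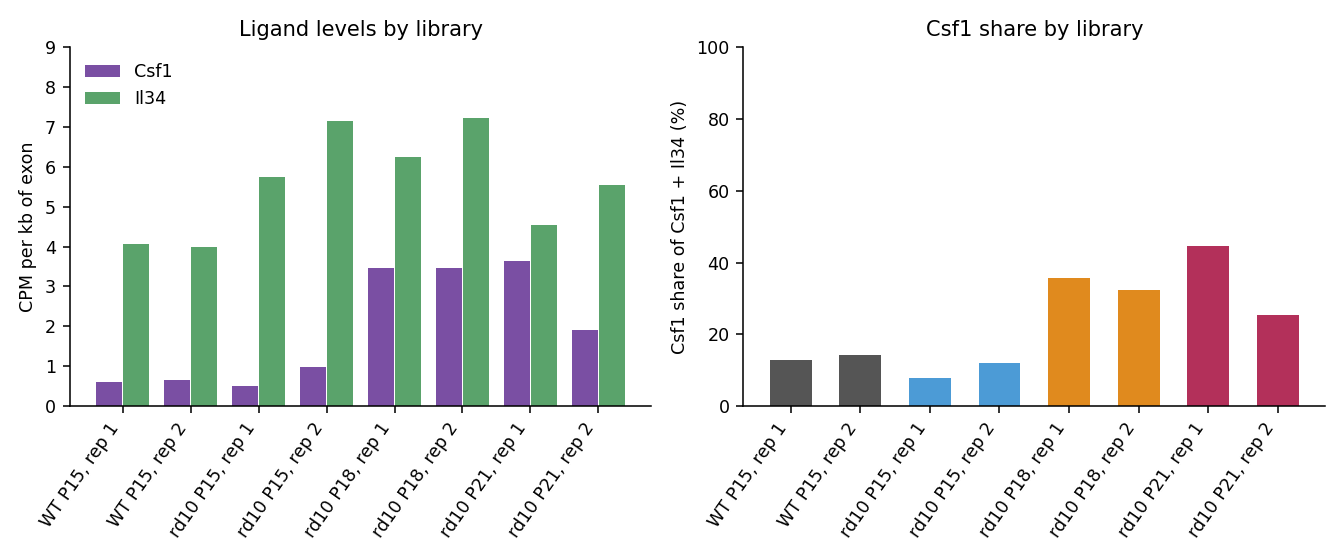
Left, Csf1 and Il34 in CPM per kb of exon in each of the 8 libraries; right, the Csf1 share of the summed CPM per kb of both genes, in percent. Il34 was the taller bar in every library, and the Csf1 share ran from 7.91% to 14.3% at P15 and from 25.5% to 44.5% at P18 and P21.

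Csf1r encodes the shared receptor (ENSMUSG00000024621, plus strand of chromosome 18, GRCm38 61100598 to 61132149). Its level was 16.9 and 16.7 CPM in the WT libraries, and in the rd10 libraries 28.6 and 25.3 at P15, 33.9 and 52.4 at P18, and 84.2 and 40.0 at P21. All 6 rd10 libraries were above both WT libraries and both late groups were above rd10 P15, whereas P18 and P21 overlapped. Against WT P15 the log2 fold change was 0.68 (SE 0.34, adjusted p = 0.484) at P15, 1.36 (SE 0.35, adjusted p = 0.103) at P18 and 1.88 (SE 0.35, adjusted p = 0.0836) at P21, and none passed edgeR's test. DESeq2 called Csf1r at P18 (adjusted p = 0.00299) and at P21 (adjusted p = 1.07e-05). The P21 value rested on the higher library, replicate 1: edgeR gave 1.25 without it (adjusted p = 0.234), and 2.33 with a call without replicate 2 (adjusted p = 0.0147). At P18, edgeR called Csf1r without rd10 P21 replicate 1 (adjusted p = 0.0376) or rd10 P21 replicate 2 (adjusted p = 0.0344), a group that is in the fit but not in that comparison. Csf1r shares 873 exonic bases, 15.12% of its exons, with Hmgxb3 on the opposite strand, and the library kit does not mark strand. Hmgxb3 stayed between 53.0 and 61.1 CPM at P15, between 36.7 and 53.9 CPM at P18 and between 49.8 and 60.4 CPM at P21. The genes most alike in pattern to Csf1r were Inpp5d, a lipid phosphatase gene of blood cells (r = 0.985), Folh1 (r = 0.982) and Tgfbr2, a TGF-β receptor gene (r = 0.981).

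Spi1 encodes PU.1 (ENSMUSG00000002111, GRCm38 chr2:91082390-91115756, plus strand). It was at 1.70 and 2.01 CPM in the WT libraries, and in the rd10 libraries 1.75 and 1.48 at P15, 8.08 and 3.50 at P18, and 5.97 and 1.68 at P21. The P18 libraries were above all P15 libraries, whereas P21 replicate 2 fell within the range of the P15 libraries. The log2 fold change against WT P15 was -0.20 (SE 0.64) at P15, 1.64 (SE 0.64, adjusted p = 0.239) at P18 and 1.05 (SE 0.63, adjusted p = 0.586) at P21, none of which passed edgeR's test. The P21 value was -0.14 without rd10 P21 replicate 1 and 0.03 with a term for sex. At both late ages the male library, replicate 1, was the higher one for Spi1. Counts of Spi1 came to 97 and 108 over the 2 libraries of rd10 P15 and of WT P15, beside 138 and 165 for Irf8. The part of low counts and of the spread between libraries in the missing calls of Spi1 was not tested.

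Irf8 encodes interferon regulatory factor 8, a factor of microglia and of monocytes and dendritic cells (ENSMUSG00000041515, GRCm38 chr8:120736358-120756694, plus strand). Its window of 250 bases before the RefSeq start, chr8:120736108-120736357 on the plus strand of GRCm38.p6, is shown because Irf8 was the transcription factor gene of the 7 that passed the test.
Irf8: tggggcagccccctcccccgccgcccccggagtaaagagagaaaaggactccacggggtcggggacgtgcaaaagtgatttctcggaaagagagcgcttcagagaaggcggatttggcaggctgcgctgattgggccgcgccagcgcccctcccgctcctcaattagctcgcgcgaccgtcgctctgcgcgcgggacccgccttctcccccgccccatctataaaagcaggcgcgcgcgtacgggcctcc
As for Csf1, none of the letters of the 5 motifs was found in this window, nor in that of a second RefSeq start of Irf8 or in that of Cebpa. RefSeq windows of 4 of the 7 members were searched, 6 windows in all, and member windows on the chromosome of Csf1r were left out. The windows of Runx1 did hold matches: 2 of the IRF motif before 1 start and 1 of the PU-box before the other.

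Irf8 was at 2.99 and 2.72 CPM in the WT libraries, and in the rd10 libraries 2.61 and 1.97 at P15, 19.9 and 11.3 at P18, and 15.5 and 7.80 at P21. All 4 late libraries were above all 4 P15 libraries, and P18 and P21 overlapped. The means were 2.86 ± 0.194 CPM for WT, and for rd10 2.29 ± 0.449 at P15, 15.6 ± 6.05 at P18 and 11.6 ± 5.45 at P21 (SD, n = 2 each). Against WT P15, Irf8 rose at P18 by a log2 fold change of 2.45 (SE 0.42, edgeR adjusted p = 0.033), and the P21 value of 2.03 (SE 0.42, adjusted p = 0.095) did not pass. At P15 the value was -0.32 (SE 0.42, adjusted p = 0.836). DESeq2 called Irf8 at P21 against WT P15 (adjusted p = 0.000623), where edgeR did not. Irf8 was also the only member that edgeR called between rd10 P18 and rd10 P15, where it rose 6.79-fold (log2 fold change 2.76, SE 0.43, edgeR adjusted p = 0.0407).

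The 2 calls of Irf8 were close to the threshold. Against WT P15 the adjusted p was 0.21 and 0.159 with WT replicate 1 or 2 left out. It was 0.057 and 0.0581 with rd10 P15 replicate 1 or 2 left out, and 0.066 with rd10 P18 replicate 1 left out. Against rd10 P15 it was 0.0591, 0.0615, 0.187, 0.277 and 0.0715 with the same libraries left out in turn, and in all 10 cases the call was lost. The log2 fold changes themselves were 1.98 to 2.53 in the first 5 cases and 2.30 to 2.98 in the others. A fit on only the 4 libraries compared also lost both calls (adjusted p = 0.0591 and 0.0704, log2 fold change 2.46 and 2.76). With a term for sex both calls were kept (adjusted p = 0.0371 against WT P15 and 0.00389 against rd10 P15). Within females, the P18 library was 3.96 times the WT mean. Within males, the P18 library was 8.67 times the rd10 P15 mean. The genes most alike in pattern were Psmb8, an immunoproteasome subunit gene (r = 0.994), Trim12c (r = 0.992) and Plekha4 (r = 0.991). These r values are over the same 8 libraries, which fall into P15 and later groups, and are a description.

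Runx1, a Runt-family factor gene of blood cell development (ENSMUSG00000022952, GRCm38 chr16:92601466-92826149, minus strand), had low counts. It was at 2.92 and 1.33 CPM in the WT libraries, and in the rd10 libraries 0.477 and 1.45 at P15, 3.43 and 3.21 at P18, and 1.57 and 1.12 at P21. Both P18 libraries were above all other libraries, and the remaining 3 groups overlapped. No comparison of Runx1 passed, and the P18 to WT P15 log2 fold change was 0.65 (SE 0.63, edgeR adjusted p = 0.645).

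Cebpa encodes C/EBPα, a factor of granulocyte and macrophage development (ENSMUSG00000034957, GRCm38 chr7:35119293-35121928, plus strand, a single exon). It was at 1.07 and 1.29 CPM in the WT libraries, and in the rd10 libraries 0.446 and 0.282 at P15, 8.44 and 2.14 at P18, and 2.71 and 4.75 at P21. The rd10 P15 libraries were the lowest, the WT libraries came next, and both late groups lay above all P15 libraries with wide spread. The lowest group rested on 22 counts in its 2 libraries together. The difference of rd10 P18 from rd10 P15 was 3.84 on the log2 scale (SE 0.74) and did not pass (edgeR adjusted p = 0.0712), nor did 2.16 (SE 0.67) at P18 against WT P15 (adjusted p = 0.154). At P15, the rd10 libraries differed from WT by -1.69 (SE 0.72, adjusted p = 0.39). DESeq2 called both differences (adjusted p = 4.85e-05 against rd10 P15 and 0.0402 against WT P15). Against rd10 P15, edgeR also called Cebpa with no filter on low counts (adjusted p = 0.0344). Both values turned on rd10 P18 replicate 1: against WT P15 the difference was 0.85 without it and 2.83 with a call without replicate 2 (adjusted p = 0.0115), and against rd10 P15 it was 2.54 and 4.52 (adjusted p = 0.183 and 0.00254).

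**Figure D3:**
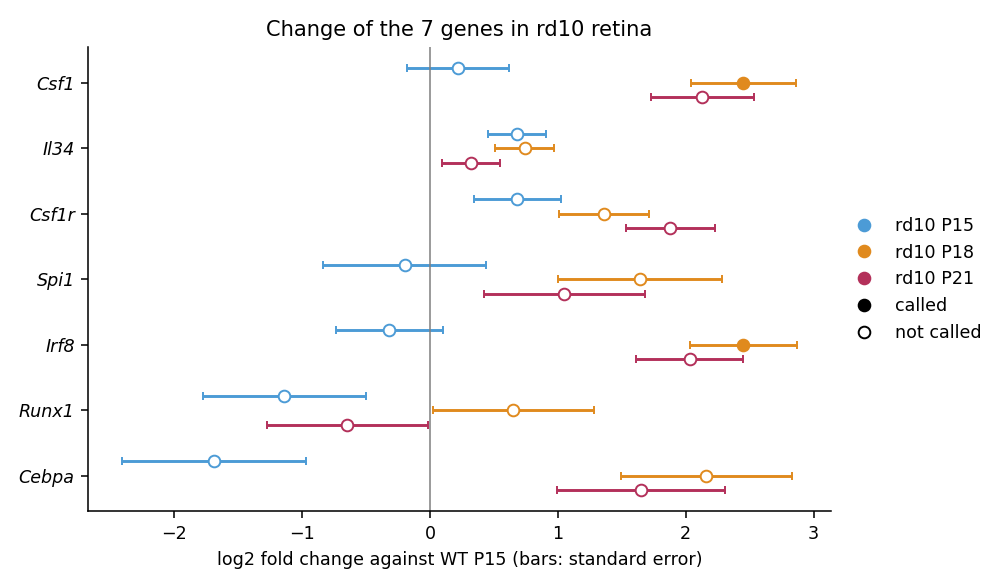
Log2 fold change of the 7 genes against WT P15 (horizontal axis) at P15, P18 and P21, with bars for the standard error of the edgeR fit on 8 libraries, filled points for calls and open points for the rest. Csf1 and Irf8 at P18 were the only filled points, both at 2.45.

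Between rd10 and WT retina at P15, no member passed the test, with 0 of 7 called by edgeR against 0.23% of all genes 2 at an unadjusted p under 0.05 (Il34 and Cebpa) against 12.3% of all genes, and 0 called by DESeq2 against 2.13%. The libraries separated upward for 2 members, Il34 and Csf1r, and downward for 2, Irf8 and Cebpa, against 24.8% and 24.9% of all genes in these directions. At P21 against WT P15, 0 of 7 members were called by edgeR against 0.386% of all genes, with 4 at an unadjusted p under 0.05 against 11.8%, and 3 called by DESeq2 against 2.76%. The libraries of 5 members separated upward, against 24.9% of all genes. The P18, P21 and P15 comparisons use the same 2 WT libraries, so they are not independent of each other.

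Among the rd10 groups, 1 of 7 members was called between P18 and P15, against 0.591% of all genes, and 6 of 7 separated upward, against 21.9% of all genes. Between P21 and P15, edgeR called 0 of 7 members against 0.401% of all genes, with 4 at an unadjusted p under 0.05 against 12.8%, and 4 called by DESeq2 against 2.62%. Between P21 and P18 it called 0 of 7 against 0.0196% of all genes, with 0 at an unadjusted p under 0.05 against 10.8%, and 0 called by DESeq2 against 0.6%. There the log2 differences ran from -1.30 (SE 0.64) for Runx1 to 0.53 (SE 0.34) for Csf1r, with Csf1 at -0.32 (SE 0.38) and Irf8 at -0.42 (SE 0.39). With 2 libraries a group, the exact two-sided permutation test of a single gene cannot give a p below 0.333, so single genes were judged by the fit across all genes.

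Sex differed within the late groups, and 5 of 7 members were higher in replicate 1, the male, at P18 and 5 of 7 at P21. Within females, all 7 members were above both WT libraries at P18 and 5 at P21, the exceptions being Spi1 and Runx1. Within males, 6 members were above both rd10 P15 libraries at P18 and 6 at P21, the exception being Il34. Each of these within-sex comparisons sets 1 library against 2 and has no test. The share of all genes in the same positions was not computed, so these counts show nothing particular to the members.

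Per kb of exon, the order of the members in WT P15 was Il34 at 4.03, Csf1r at 2.92, Spi1 at 0.688, Csf1 at 0.632, Cebpa at 0.449, Irf8 at 0.405 and Runx1 at 0.177 CPM per kb. In rd10 P21, Csf1r came first at 10.8, before Il34 at 5.04, Csf1 at 2.77, Irf8 at 1.65, Spi1 and Cebpa at 1.42 each and Runx1 at 0.112 CPM per kb. In WT P15 the ranges of Spi1 and Csf1 overlapped, as did those of Cebpa and Irf8, and at P21 the ranges of neighbours from Csf1 to Cebpa overlapped.

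Part of the microglia genes moved with the members. Of 21 microglia genes, 6 were called higher at P18 than in WT and 4 at P21, among them Itgam (log2 fold change 6.20 at P18), Fcrls (3.67) and C1qa (2.43). Itgam rose from a low level, 0.187 ± 0.0557 CPM in WT to 14.1 ± 10.3 CPM at P18 (SD, n = 2 each). The other 15 did not pass at P18, and the log2 differences of the 21 ran from -0.22 to 6.20 with a median of 2.15. The homeostatic markers P2ry12 and Siglech, picked after their values were seen, were at 0.48 (adjusted p = 0.479) and 0.52 (adjusted p = 0.801). The sum of all 21 microglia genes was 92.7 to 108 CPM for WT, and for rd10 126 to 137 at P15, 361 to 387 at P18 and 267 to 543 at P21. The mean log2 CPM of the list was above that of WT P15 by 0.67 in rd10 retina at P15 and by 2.15 at both P18 and P21.

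Set against that mean, the members took different courses. On average Csf1 and Irf8 were nearest to it at the late ages. Their differences from the list were 0.28 and 0.22 at P18 and -0.12 and -0.23 at P21 (log2, WT P15 set to 0). The Irf8 libraries at P18 stood at 0.61 and -0.18. Csf1r matched the list at P15 (0.01) and was below it by 0.84 at P18 and by 0.36 at P21, in all 4 late libraries. Cebpa stood at -0.36 at P18 and -0.59 at P21, with libraries on both sides of the list at each age, and Spi1 at -0.66 and -1.38. Il34 was below the list by 1.42 at P18 and 1.84 at P21, and Runx1 by 1.42 and 2.70. At P15, where the list and Csf1r were above WT, Irf8 stood at -0.99, Spi1 at -0.86 and Cebpa at -2.23 relative to the list. These differences are descriptions without a test, and the part of microglial number in the members' levels was not tested.

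**Figure D4:**
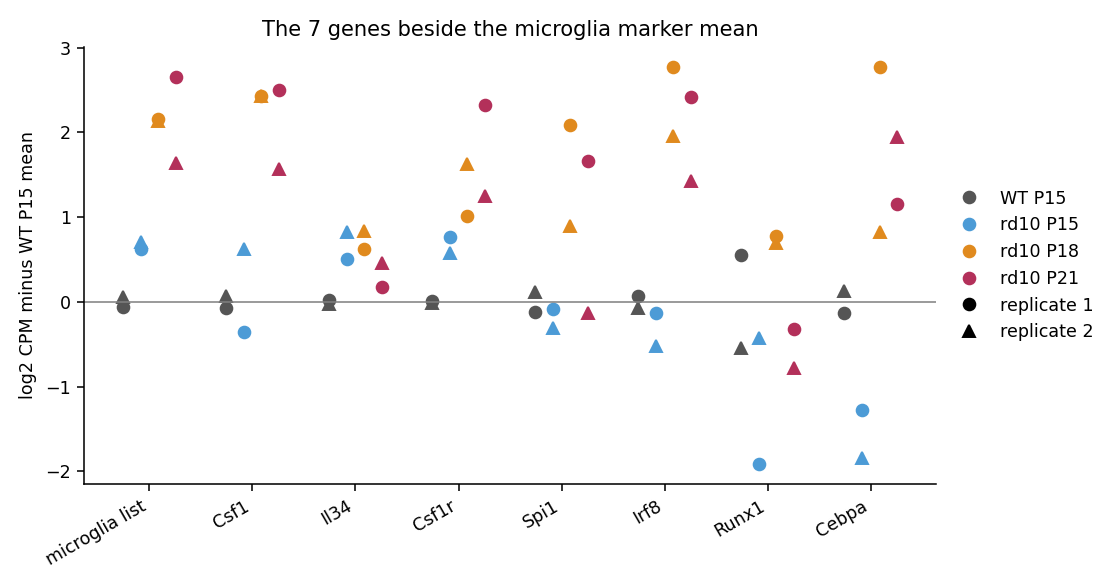
Log2 CPM minus the mean of the 2 WT P15 libraries (vertical axis) for the mean of 21 microglia genes and for each of the 7 genes, by library, colored by group, with circles for replicate 1 and triangles for replicate 2. Csf1 and Irf8 reached about the height of the microglia list at P18 and P21, whereas Il34 and Runx1 stayed below 1 in every library.

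Markers of granulocytes and lymphocytes were sparse, whereas sums of the lists for monocytes and for dendritic cells were higher at the late ages. None of 8 granulocyte genes had enough counts to be tested, 5 were at 0 in all libraries, Ly6g, Elane and Mpo among them, and their sum was at most 2.00 CPM. Lymphocyte genes summed to at most 3.94 CPM. The 12 monocyte and perivascular macrophage genes summed to 22.1 to 22.6 CPM for WT, and for rd10 23.1 to 28.6 at P15, 65.8 to 75.6 at P18 and 39.0 to 68.7 at P21. Of the 9 tested, all 9 had a positive log2 difference at P18 and 1 was called. This was Lyz2, a lysozyme gene of myeloid cells (log2 fold change 2.66, SE 0.42, edgeR adjusted p = 0.0291 against WT P15). Ccr2, a monocyte chemokine receptor gene picked after its values were seen, was at a mean of 0.0554 CPM in WT and 2.59 CPM at P18 (adjusted p = 0.17). The 8 genes listed for dendritic cells summed to 7.67 to 10.5 CPM in WT, and in rd10 retina to 12.5 to 13.7 at P15, 29.7 to 31.6 at P18 and 18.5 to 52.9 at P21. Among them, H2-Ab1, Cd74 and Siglecf are not particular to dendritic cells, so the sum does not measure these cells. Of the 4 tested genes of this list, H2-Ab1, an MHC class II gene, was called at P18 against WT P15 (4.03, SE 0.76, edgeR adjusted p = 0.0405). Not called there were Cd74 at 4.24 (adjusted p = 0.19), Zbtb46 at 0.09 (adjusted p = 0.907) and Siglecf at 0.07 (adjusted p = 0.993). Zbtb46 was at a mean of 7.54 CPM in WT and 8.0 CPM at P18. Another 4 genes, Xcr1 and Clec9a among them, had too few counts. The part of such cells in the levels of Irf8 and Spi1 was not tested.

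Beside the receptor, 19 genes of adaptors, kinases and other CSF1R pathway partners were measured, and 1 was called at P18 and at P21. That gene, Stat3, is a transcription factor used by many cytokine receptors and by glia, and rose at P18 by a log2 fold change of 1.47 (SE 0.12, edgeR adjusted p = 0.00271). At P21 its log2 fold change was 1.16 (adjusted p = 0.0226). Tyrobp, the adaptor gene of microglial receptors, stood at a log2 difference of 2.42 at P18 (adjusted p = 0.0534) and was also among the 3 genes most alike to Csf1 in pattern (r = 0.984), after Trim30d (r = 0.989) and Fcgr4 (r = 0.986). The median over the 19 genes was 0.80 at P18 and 0.29 at P21.

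Of 29 other myeloid transcription factor genes, 25 had enough counts and 4 were called higher against WT P15 at P18, with none lower. Cebpd rose from 13.2 ± 1.75 to 138 ± 44.6 CPM (SD, n = 2 each; log2 fold change 3.39, SE 0.26, edgeR adjusted p = 0.00171). Cebpb, which with Cebpd belongs to the same leucine zipper family as Cebpa, rose by 3.02 (adjusted p = 0.0285). Irf1, an interferon-induced relative of Irf8, rose by 2.94 (adjusted p = 0.0348), and Junb, an AP-1 subunit gene, rose by 1.93 (adjusted p = 0.00805). Cebpd alone of these was called at P21 (1.80, adjusted p = 0.0351). None of the 4 is confined to myeloid cells. In a list drawn up for reactive Müller glia, 9 of 12 genes were called higher at P18 and 4 at P21. Counts of whole retina do not show which cells held this RNA. Gfap, the intermediate filament gene of reactive glia, rose by 3.44 at P18 (edgeR adjusted p = 0.000745). Socs3, a feedback inhibitor gene of cytokine signalling, rose by 3.80 (adjusted p = 0.00171) and Cp, the ceruloplasmin gene, by 2.15 (adjusted p = 0.00381). Edn2, an endothelin gene counted in the list but not confined to Müller glia, rose by 3.30 (adjusted p = 0.0108). The part of glia in the change of these factors, and of Csf1, was not tested.

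**Figure D5:**
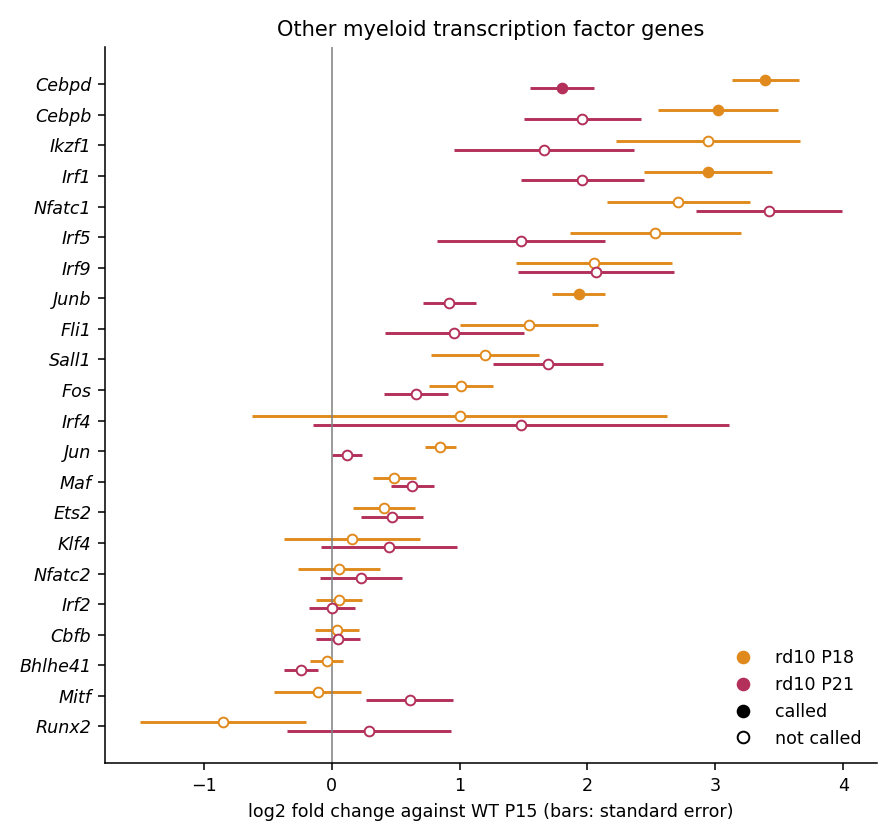
Log2 fold change against WT P15 (horizontal axis) at P18 and P21 for the 22 tested genes of other myeloid transcription factors with counts in WT (3 others were at 0 in both WT libraries and are not drawn), with bars for the standard error, filled points for calls and open points for the rest. Cebpd, Cebpb, Irf1 and Junb were filled at P18 and Cebpd at P21.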

How the data were processed

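The authors deposited 1 table of raw read counts per Ensembl gene for the 8 libraries. The submitters' processing notes name the aligner HISAT2; its version, the counter, the build and the annotation were not given in the sources used here. Identifiers were named from GENCODE M21 (GRCm38), which named 52029 of 57010, and lengths are the union of exons there. Genes were filtered with filterByExpr (minimum count 10, minimum total 15), leaving 20457. CPM were scaled by TMM factors, and 2 was the prior count for log2 CPM. edgeR 4.0.16 (R 4.3.3) fitted the 4 groups on all 8 libraries by the robust quasi-likelihood test (4 residual degrees of freedom), with Benjamini-Hochberg adjustment over all tested genes. SE is the log2 fold change divided by the root of F. The script was tested on simulated data. The alternatives were RLE factors, library size, no filter, a replicate block, a term for sex, DESeq2 1.42.0, the 4 libraries compared, no fold threshold and each library left out. Named from each list were the called genes (at most 4, by smallest adjusted p in any comparison) or, with none called, the 2 with the smallest adjusted p at P18 against WT P15; some genes that this rule names are not reported here. Likeness was Pearson's r of log2 CPM over 8 libraries, the top 3 being named. The members and lists were chosen with earlier results of these data known. Promoters were RefSeq windows.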

Additional observations from a re-analysis of the deposited data

How the results depend on the processing

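The 7 genes in 6 comparisons gave 42 values, and 32 kept their sign under all 15 alternatives. The members called at P18 against WT P15 (2) were 1 with a term for sex (Irf8), 4 with DESeq2, 1 with only the 4 libraries compared (Csf1) and 0 to 3 when a library was left out (0 without either WT P15 replicate, 3 without rd10 P18 replicate 2 or either rd10 P21 replicate). At P21 against WT P15 (0) they were 2 without a filter, 3 with DESeq2 and 0 to 2 with a library left out (2 without either rd10 P18 replicate or rd10 P21 replicate 2). Between rd10 P18 and P15 (1) they were 2 with library size only, 3 without a filter, 3 with a term for sex, 3 with DESeq2, 0 with only the 4 libraries and 0 to 3 with a library left out (0 without any P15 library or rd10 P18 replicate 1, 3 without rd10 P18 replicate 2). Between rd10 P21 and P15 (0) they were 1 without a filter, 1 with a term for sex, 4 with DESeq2 and 0 to 2 with a library left out (2 without either rd10 P18 replicate). The replicate numbers did not pair the libraries (r of replicate differences across genes from -0.025 to 0.059); with the replicate block 1 member, Irf8, was called between rd10 P21 and P15, and the block changed no other count of members called. Without division by length, the mean log2 ratio of Csf1 to Il34 was -1.25 for WT, and for rd10 -1.77 at P15, 0.47 at P18 and 0.50 at P21. With a term for sex, Csf1 at P15 against WT was -0.25 and Il34 between rd10 P18 and P15 was -0.07. With a library left out, the sign changed for Csf1 at P15 against WT (-0.36 to 0.63), for Spi1 (-0.14 to 1.69) and Runx1 (-1.11 to 0.03) at P21 against WT, for Il34 between rd10 P18 and P15 (-0.08 to 0.23) and for Runx1 between rd10 P21 and P15 (-0.10 to 1.49). Between P21 and P18 it changed for Csf1 (-0.86 to 0.08), Csf1r (-0.11 to 0.97), Spi1 (-1.79 to 0.13), Irf8 (-1.0 to 0.04) and Cebpa (-1.18 to 0.80). Over all genes, the number called ranged over the alternatives from 4 to 431 at P15 (47 as reported), 39 to 1250 at P18 (303) and 4 to 573 at P21 (79) against WT P15, from 16 to 977 (121) and 10 to 529 (82) for rd10 P18 and P21 against rd10 P15, and from 2 to 963 (4) between P21 and P18. With library size alone as the scale, the median of all genes against WT P15 went from 0.01 to 0.13 (P18) and from 0.00 to 0.11 (P21). The cause of these changes was not tested. Counts of Cebpa, Runx1 and Spi1 were low at P15, and the part of this in what was detectable was not tested.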

Other observations

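The genes of related growth factors showed no call. Of 17 measured, 14 were tested, Csf2 and Il3, the ligand genes of the receptors that share the common β chain, were at 0 in all libraries, and Csf3 had too few counts. None of the 14 was called by edgeR against WT P15 at P18 or P21. The smallest adjusted p at P18 belonged to Tgfb1 (2.05 ± 1.07 CPM in WT P15 and 6.08 ± 1.91 in rd10 P18, SD, n = 2 each; log2 difference 1.57, adjusted p = 0.17) and Tgfbr2 (0.79, adjusted p = 0.197).

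Among the members themselves, the highest Pearson's r of log2 CPM over the 8 libraries were 0.93 for Csf1 and Irf8, 0.89 for Spi1 and Irf8 and 0.88 for Irf8 and Cebpa, and Il34 had r between -0.05 and 0.38 with the other 6. The libraries share their split into P15 and later ages, and these values are a description. The genes most alike to Spi1 were Ms4a4c (r = 0.985), Tmem161a (r = 0.985) and Pold4 (r = 0.984), those most alike to Runx1 were Fam53a (r = 0.963), 1600020E01Rik (r = 0.938) and AC109619.1 (r = 0.937), and those most alike to Cebpa were Fcgrt (r = 0.974), Sdc4 (r = 0.969) and Ypel4 (r = 0.967). Ms4a4c was at 0 in all 4 P15 libraries and in rd10 P21 replicate 2, and at 6.71 and 1.01 CPM in rd10 P18 and 2.66 CPM in rd10 P21 replicate 1.

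Among lists of retinal cells, Nr2e3, a rod factor gene, fell by 1.18 on the log2 scale at P18 (edgeR adjusted p = 0.0279), and Gnat1 and Prph2 fell by 1.15 (adjusted p = 0.0332) and 1.20 (adjusted p = 0.0487) at P21 against WT P15. Of 8 Müller glia genes and 9 ganglion cell genes, none was called at any age against WT P15, with Sox9 at 0.86 (adjusted p = 0.103), Glul at -0.52 (adjusted p = 0.107), Isl1 at 0.36 (adjusted p = 0.203) and Sncg at 0.47 (adjusted p = 0.251) at P18. Of 6 astrocyte genes 2 were called at P18 against WT P15, Aldh1l1 at 1.46 (adjusted p = 0.0222) and Slc14a1 at 1.27 (adjusted p = 0.0349). Against rd10 P15 both were also called, at 1.79 (adjusted p = 0.0166) and 1.34 (adjusted p = 0.0485), although the median of the 6 was -0.42. Of 8 endothelial genes 1 was called, Cldn5, a tight junction gene, which was already higher in rd10 than in WT retina at P15 (2.00, adjusted p = 0.015) and stood at 1.69 at P18 (adjusted p = 0.0125). Lrat, 1 of 7 pigment epithelium genes and the only one called against WT P15, fell by 3.0 at P21 (adjusted p = 0.0488). Among lists without a call against WT P15, the smallest adjusted p at P18 belonged to the lymphocyte gene Cd8a (0.212), the red blood cell genes Hba-a2 (0.309) and Hba-a1 (0.352) and the lens genes Bfsp1 (0.268) and Cryaa (0.338).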
